A study of Mus musculus with 30 samples.

Results

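FoxK1 KD cells were compared with Control cells after insulin stimulation, as part of a study of the forkhead factors FoxK1 and FoxK2 in AML12 cells. The comparison uses 7 of the 30 sequenced samples, 4 labelled Foxk1 KD with insulin and 3 labelled Control with insulin, and its members were chosen by these labels alone. AML12 is a hepatocyte line derived from the liver of a mouse carrying a human TGF-alpha transgene, so every group shares that transgene. The study combined 4 knockdown states (Control, FoxK1 KD, FoxK2 KD and the double knockdown, DKD) with and without insulin in 8 groups. Both groups compared here were transfected with siRNA, non-silencing in Control and directed at Foxk1 in FoxK1 KD cells, then kept overnight without serum in medium with albumin and given 100 nM insulin for 6 h. The cells used for the comparison at basal had the same transfections and starvation without insulin. Their labels give a treatment time of 0 min, while the protocol describes a mock treatment of 6 h. Transfection was transient, and the target transcript was lowered and not removed.

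FoxK1 and FoxK2 are winged-helix transcription factors that bind forkhead motifs and recruit corepressors such as the Sin3 complex. Insulin acts on hepatocytes through its receptor and the AKT and mTORC1 kinases, which promote glucose use, sterol and fatty acid synthesis and growth, and which exclude FoxO factors from the nucleus so that fasting genes are turned off. SREBP factors drive the genes of sterol and fatty acid synthesis, and ATF4 drives those of amino acid uptake and synthesis.

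The deposited values are raw counts of reads per gene, with totals of 3140647 to 3879649 in the Control and 2345903 to 2673390 in the FoxK1 KD samples. Levels are given as CPM, counts scaled to a common library size after TMM normalization, which centres most genes. In a principal component analysis of the 7 samples the first component held 28.8% of the variance and separated the groups, with scores of -27.2, -11.2 and -11.1 in Control replicates 1, 2 and 3 and between 11.3 and 14.1 in FoxK1 KD. Control replicate 1 stood apart from the other two. It also held less of the nuclear long noncoding RNAs Malat1 and Neat1, at 187 and 216 CPM, against 605 to 733 CPM in Control replicates 2 and 3 and 783 to 1042 CPM in FoxK1 KD. Malat1 and Neat1 were called higher in FoxK1 KD (log2 fold changes 0.82 and 0.89, adjusted p = 0.041 and 0.019 in the edgeR test described below) but had log2 fold changes of 0.43 and 0.51 with adjusted p = 0.24 and 0.13 without Control replicate 1. The part of this in other results was not tested. Values without that sample are given for some results only. Among calls given below without such a value, those of Elovl6, Scd2, Twnk, Gstm2, Ccl20, Tnfaip2, 1700066M21Rik and others were also lost without it.

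The cells carried part of a hepatocyte programme. Of 30 hepatocyte markers 17 had enough counts to be tested, among them Hnf4a (130.4 to 152 CPM over the 7 samples) and Krt18 (924 to 1185 CPM), while Alb was at 5.06 to 19.7 CPM and Apoc1 at 0. Of the 17, Serpina1a and Serpina1b rose and 0 fell. The summed hepatocyte markers were at 3045 to 3358 CPM in Control and 3149 to 3534 CPM in FoxK1 KD. Of the 11 markers of stellate cells and fibroblasts and the 7 of endothelial cells, none had enough counts to be tested, and Pdgfrb, Col1a2, Pecam1 and Cdh5 were at 0. In the list of macrophage and leukocyte markers, Adgre1, Clec4f and Cd3e were at 0, but Csf1r rose from 3.69, 2.53 and 1.89 to 9.24, 8.21, 8.89 and 10.02 CPM (log2 fold change 1.71, standard error 0.27, adjusted p = 1.7e-04 in edgeR). It was called in 7 of 7 fits that left out 1 sample. Ptprc was at 0.63 to 1.58 CPM in Control and 0.85 to 1.49 CPM in FoxK1 KD. Cd68 was at 1.32 to 1.90 CPM in Control and 0.742 to 2.955 CPM in FoxK1 KD, and neither had enough counts to be tested. The list, with Csf1r in it, summed to 4.09 to 6.59 CPM in Control and 10.5 to 13.7 CPM in FoxK1 KD, and its part in other results was not tested. In bulk samples a change in the number of cells of a type and a change in RNA per cell cannot be told apart. Among cholangiocyte markers Krt7 rose by 0.75 on the log2 scale (adjusted p = 0.020, edgeR), with the summed list at 2158 to 2692 CPM in Control and 2170 to 2413 CPM in FoxK1 KD. Krt7 was at 25.3, 17.4 and 11.0 CPM in Control and 26.6 to 32.3 CPM in FoxK1 KD. Its call was kept in 3 of 7 fits that left out 1 sample.

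Foxk1 itself was lowered in every FoxK1 KD sample. Foxk1 (ENSMUSG00000056493.9, GRCm38 chromosome 5 from 142401497 to 142462011) stood at 52.2, 57.8 and 49.0 CPM in Control replicates 1 to 3 after insulin and at 30.7, 28.0, 29.6 and 35.3 CPM in FoxK1 KD replicates 1 to 4. The groups did not overlap, and the FoxK1 KD mean was 58.2% of Control, a log2 fold change of -0.78 (standard error 0.14, adjusted p = 9.9e-04). Foxk2 was at 157, 163 and 168 CPM in Control and 149.6, 148, 123 and 136 CPM in FoxK1 KD. Its FoxK1 KD values were all below Control, at 85.5% of its mean, but the log2 fold change of -0.22 (0.09) had an adjusted p of 0.18. At basal Foxk2 was at 83.45% of Control, with a log2 fold change of -0.26 (0.08) and an adjusted p of 0.049. All tests on single genes here are edgeR's quasi-likelihood test in a model of the 8 groups, with Benjamini-Hochberg adjustment over the 11368 genes with enough counts, and a call means an adjusted p (FDR) below 0.05. A value in brackets after a log2 fold change is its standard error.

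**Figure D1:**
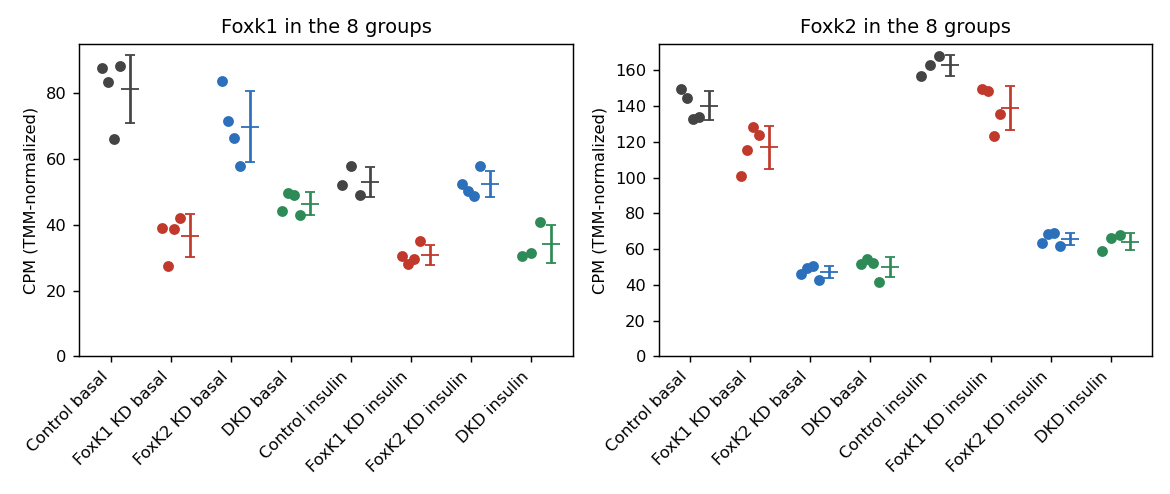
Foxk1 (left) and Foxk2 (right) in TMM-normalized CPM in the 8 groups, with 1 dot per sample and the mean with its SD beside the dots (n = 4, or 3 for Control and DKD after insulin). After insulin the 4 FoxK1 KD samples lie between 28.0 and 35.3 CPM of Foxk1, below the 3 Control samples at 49.0 to 57.8 CPM.

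After insulin, 212 genes were higher and 196 lower in FoxK1 KD than in Control. These were 1.86% and 1.72% of the genes tested, 3.59% together, and 1995 genes had an unadjusted p below 0.05. The changes were small. The median was 0.62 on the log2 scale among the genes that rose and -0.41 among those that fell, against 0.0033 over all genes tested. A change beyond 1.5-fold was found in 117 of the rises and 34 of the falls. At the study's FDR of 0.25 the counts were 863 higher (7.59%) and 854 lower (7.51%). Protein-coding genes made up 199 of the rises and 195 of the falls. The samples of the groups did not overlap for 203 of the rises and 186 of the falls, where 16.0% of all tested genes had no overlap. The share of calls that were higher was 52.0%, but 68.6% with library totals in place of TMM (258 higher and 118 lower) and 40.6% with a trend on GC content and length removed (247 and 362). Without Control replicate 1 the counts were 131 and 99, and without FoxK1 KD replicate 4 they were 141 and 86. Without FoxK1 KD replicate 2 or 3, 117 and 130 genes were lower.

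The largest rise among well-counted genes was in Thbs1, which encodes the matrix glycoprotein thrombospondin-1 (ENSMUSG00000040152.8, chromosome 2 from 118111876 to 118127133). Thbs1 stood at 24.0, 18.6 and 22.0 CPM in the Control replicates and at 66.1, 51.9, 69.8 and 73.1 CPM in the FoxK1 KD replicates. Every FoxK1 KD sample was more than 2 times any Control sample, and the log2 fold change was 1.59 (0.14, adjusted p = 1.7e-09). Slc6a18, a transporter of neutral amino acids, was at 12.4, 14.2 and 14.2 CPM in Control and 34.4, 35.8, 41.1 and 32.3 CPM in FoxK1 KD, a log2 fold change of 1.40 (0.14, adjusted p = 5.7e-08). Sept4, a septin that binds GTP, was at 27.9, 26.2 and 24.5 CPM in Control and at 55.8, 56.0, 65.2 and 68.3 CPM in FoxK1 KD. It rose by 1.22 on the log2 scale (0.12, adjusted p = 5.0e-08). A lack of overlap between the groups was required in choosing these largest rises, so it adds no support. Atp1b1, the beta subunit of the sodium pump, rose by 1.19 (0.15) and Fgfr3, a receptor for fibroblast growth factors, by 1.04 (0.16) on the log2 scale.

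The named rises included genes for secreted and surface proteins. Serpina1a and Serpina1b encode alpha-1-antitrypsin, the protease inhibitor that hepatocytes secrete. Serpina1a was at 9.49, 9.48 and 10.4 CPM in Control and 24.4, 20.5, 25.4 and 26.4 CPM in FoxK1 KD, a log2 fold change of 1.30 (0.17, adjusted p = 7.6e-06). Serpina1b rose by 1.05 (0.18) on the log2 scale, and since these copies are nearly identical, the split of reads between them is uncertain. Alpl, the tissue-nonspecific alkaline phosphatase, was at 8.44, 9.17 and 6.29 CPM in Control and 15.5, 16.8, 17.4 and 18.6 CPM in FoxK1 KD, a log2 fold change of 1.09 (0.18, adjusted p = 1.8e-04). Psca, a surface protein with a lipid anchor, varied within Control, at 413, 166 and 198 CPM against 468, 559.6, 549 and 527 CPM in FoxK1 KD. Its log2 fold change was 1.02 (0.25, adjusted p = 0.018) and 1.53 (0.26) without Control replicate 1, which was its highest Control sample, and the call was lost without Control replicate 2 or 3. Uts2b, which encodes the peptide urotensin-2B, was at 103, 47.4 and 109.7 CPM in Control and 160.3, 199, 197 and 135 CPM in FoxK1 KD, with a log2 fold change of 0.99 (0.21) and no call without Control replicate 2. Lrtm2 (1.06), Ypel3 (0.99) and Ccdc9b (0.99) completed the largest rises with Ifit3, described below. Of these 14 rises, 12 were called in every fit that left out 1 of the 7 samples.

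The deepest fall was in Sprr1a, a small proline-rich protein of the epithelial cornified envelope. Sprr1a stood at 20.3, 23.4 and 21.1 CPM in the Control replicates and at 6.65, 6.35, 5.93 and 5.20 CPM in the FoxK1 KD replicates. Its FoxK1 KD mean was 27.9% of Control, a log2 fold change of -1.83 (0.20, adjusted p = 1.2e-07). The choice of the largest falls also required that the groups did not overlap. Vsig1, a membrane protein with immunoglobulin domains, was at 17.1, 15.5 and 16.0 CPM in Control and 9.61, 7.84, 6.77 and 3.71 CPM in FoxK1 KD, a log2 fold change of -1.21 (0.22, adjusted p = 8.4e-04). Aff4, the scaffold of the super elongation complex of RNA polymerase II, was at 430.1, 449 and 469 CPM in Control and 259.7, 251, 310.3 and 285 CPM in FoxK1 KD. It fell by 0.70 on the log2 scale (0.08, adjusted p = 3.8e-07). B4galt1, a galactosyltransferase of the Golgi, was at 106, 116 and 114 CPM in Control and 62.8, 66.5, 66.9 and 78.0 CPM in FoxK1 KD, a log2 fold change of -0.70 (0.12, adjusted p = 2.6e-04). Dcp2, the enzyme that removes the cap of messenger RNA, fell by 0.66 (0.12), and the orphan receptor Gpr85 by 0.66 (0.13). Egln3, a prolyl hydroxylase that marks HIF-alpha, had a log2 fold change of -0.69 (0.14), and its call was lost without Control replicate 1. Ereg, the EGF receptor ligand epiregulin, had -0.76 (0.22, adjusted p = 0.043), with the call kept in 2 of 7 fits that left out 1 sample. The remaining falls were 1700066M21Rik (-0.80), Cd109 (-0.76) and Fam57a (-0.76), and Scd1 and Foxk1 are given in their groups. Of these 13 falls, 9 were called in each of the 7 fits that left out 1 sample.

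**Figure D2:**
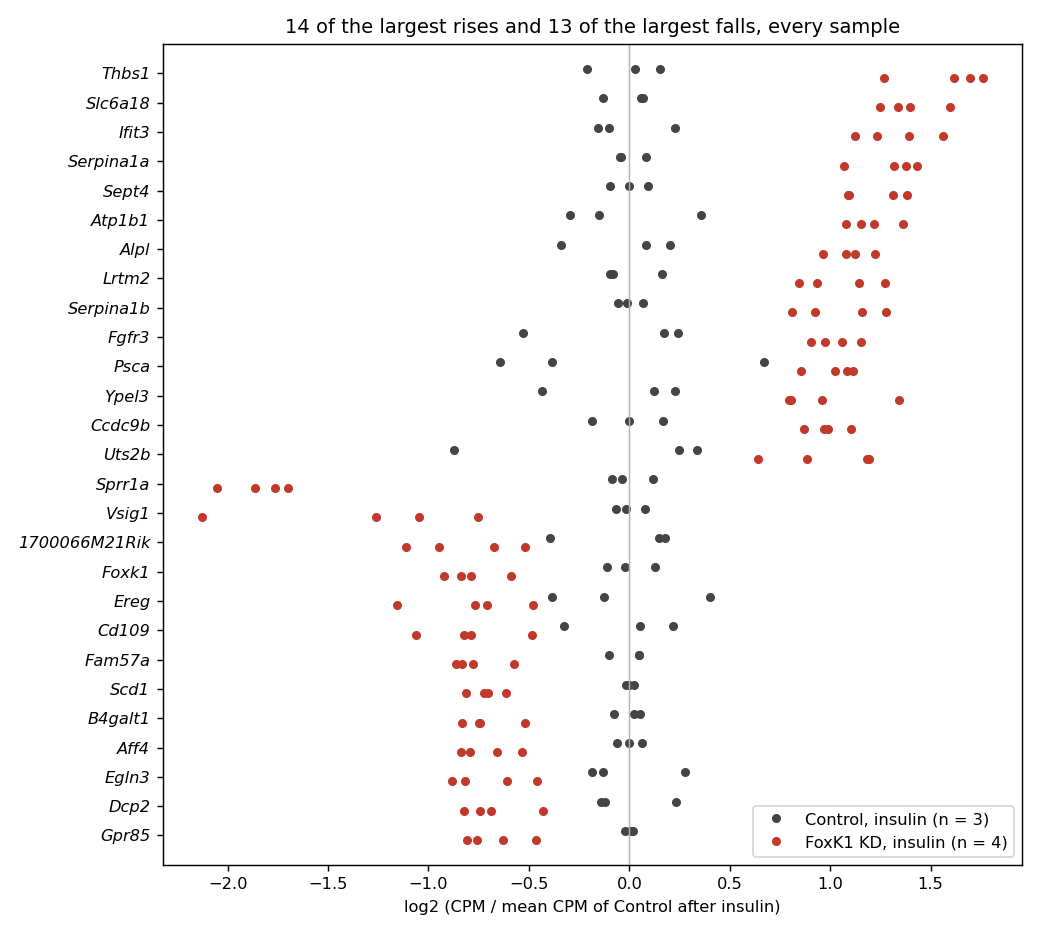
Every sample of 14 genes with the largest rises and 13 with the largest falls, as log2 of CPM over the mean CPM of Control after insulin, with Control in grey (n = 3) and FoxK1 KD in red (n = 4). The groups do not overlap for any of these genes, which the choice of genes required, and Psca and Uts2b have the widest spread in Control.

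Cholesterol genes were called in the downward direction. Of 27 genes of cholesterol synthesis and uptake, all tested, 8 fell and 0 rose, where 1.72% of all tested genes fell. The median log2 fold change of the list was -0.23, and 25 of the 27 were below 0. Hsd17b7, a sterol 3-ketoreductase, was at 298, 272 and 263 CPM in Control and 214, 219.9, 202 and 201 CPM in FoxK1 KD, and it fell by 0.41 (0.08, adjusted p = 0.0013). Lss, lanosterol synthase, was at 601, 679 and 640.4 CPM in Control and 501, 545, 486 and 493 CPM in FoxK1 KD, and it fell by 0.34 (0.07, adjusted p = 0.0048). Both genes were called in every fit that left out 1 sample, and their groups did not overlap. Acat2 (-0.40), Cyp51 (-0.33), Nsdhl (-0.32) and Sqle (-0.28) were called as well. Srebf2, the SREBP factor of this pathway, had a log2 fold change of -0.13 (adjusted p = 0.43). Fits that left out 1 sample called 4 to 7 members lower, with 4 without FoxK1 KD replicate 4 and 6 without Control replicate 1.

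The promoters of this list often held the CCAAT box, the NF-Y motif found beside sterol elements. RefSeq promoter windows (250 bases before to 50 after each start, GRCm38.p6) were at hand for 8740 of the 11368 tested genes and for 19 of the 27 cholesterol genes, not for Lss. CCAAT on either strand was in 17 of the 19 (89.5%) and in 43.6% of all 8740. Hsd17b7 and Nsdhl are shown because both fell and hold several copies, with CCAAT or its complement ATTGG in capitals. The windows are chr1:169969156-169969455, minus strand, and chrX:72918271-72918570, plus strand.
Hsd17b7: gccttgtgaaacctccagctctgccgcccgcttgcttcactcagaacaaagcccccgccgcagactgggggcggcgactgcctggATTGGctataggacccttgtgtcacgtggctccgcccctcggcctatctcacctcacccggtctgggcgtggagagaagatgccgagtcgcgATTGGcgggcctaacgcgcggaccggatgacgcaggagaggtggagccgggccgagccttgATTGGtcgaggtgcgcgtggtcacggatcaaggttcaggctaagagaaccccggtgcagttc
Nsdhl: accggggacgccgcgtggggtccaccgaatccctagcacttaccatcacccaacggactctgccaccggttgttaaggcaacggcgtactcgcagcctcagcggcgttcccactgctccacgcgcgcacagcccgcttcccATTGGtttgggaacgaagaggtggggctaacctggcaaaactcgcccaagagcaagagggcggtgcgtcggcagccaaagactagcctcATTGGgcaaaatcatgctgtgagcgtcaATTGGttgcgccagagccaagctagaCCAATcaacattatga
The Hsd17b7 window holds 3 copies and the Nsdhl window 4. A match is a description of the letters and not a bound site.

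Fatty acid synthesis and desaturation held more falls than rises. Of 26 tested genes of the 29 listed, 5 fell and 1 rose, where 1.72% of all tested genes fell and 1.86% rose. The list median was -0.09. Scd1, the delta-9 desaturase that makes oleate (ENSMUSG00000037071.2, chromosome 19 from 44394455 to 44407879), was at 1531, 1491 and 1505 CPM in Control and 926, 986, 915 and 859.6 CPM in FoxK1 KD. It fell by 0.71 on the log2 scale (0.08, adjusted p = 6.2e-07), to 61.1% of Control and without overlap. The elongase Elovl6 was at 374, 360.0 and 365 CPM in Control and 295, 289, 291 and 251 CPM in FoxK1 KD, a log2 fold change of -0.38 (0.10, adjusted p = 0.020). The elongase Elovl5 (-0.38), the acyl-CoA ligase Acsl3 (-0.34) and the desaturase Scd2 (-0.26) also fell, while Dgat1, which makes triglyceride, rose by 0.47 (0.13, adjusted p = 0.036). Fasn and Acaca, the core enzymes of synthesis, had log2 fold changes of 0.01 (0.10) and 0.03 (0.11), neither called. Between 1 and 5 members were called lower in fits that left out 1 sample, 1 without FoxK1 KD replicate 4 and 3 without any 1 of Control replicates 1 and 3 and FoxK1 KD replicates 2 and 3. Scd1 was called in all 7. Dgat1 was called in 3 of the 7, and not without Control replicate 1. With the GC and length trend removed, or with a replicate block, 0 members of the list rose.

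Genes of glycolysis were also called in the downward direction. Of 25 tested genes of the 28 listed for glucose uptake, glycolysis and lactate export, 7 fell and 0 rose. Over all tested genes 1.72% fell and 1.86% rose. The list median was -0.21 on the log2 scale, with 22 members below 0. Hk2, the hexokinase that traps glucose, was at 48.2, 53.7 and 48.4 CPM in Control and 36.2, 36.6, 33.4 and 34.9 CPM in FoxK1 KD, a log2 fold change of -0.50 (0.11, adjusted p = 0.0080). Pfkp, a phosphofructokinase isoform, was at 69.3, 62.0 and 67.9 CPM in Control and 42.5, 50.02, 43.2 and 45.6 CPM in FoxK1 KD, and it fell by 0.55 (0.12, adjusted p = 0.0065). Ldha, lactate dehydrogenase A, was at 1385, 1283 and 1025 CPM in Control and 838, 854, 848 and 899 CPM in FoxK1 KD. Its log2 fold change was -0.52 (0.11, adjusted p = 0.0048), and -0.43 (adjusted p = 0.059) without Control replicate 1, its highest sample. Pdk1, the kinase that restrains pyruvate dehydrogenase, was at 102, 98.3 and 95.9 CPM in Control and 74.6, 68.7, 69.4 and 72.8 CPM in FoxK1 KD, a fall of 0.47 (0.09, adjusted p = 0.0016). Pfkl (-0.48), Pgam1 (-0.43) and Gapdh (-0.34) were the other called members, and the glucose transporter Slc2a1 had -0.27 (adjusted p = 0.21). Fits that left out 1 sample called 5 to 7 members lower.

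Genes of amino acid uptake and synthesis under ATF4 fell in part. Of 30 genes, all tested, 5 fell and 0 rose, where 1.72% of all tested genes fell. The list median was -0.24 and 27 members were below 0. Slc7a5, the large neutral amino acid transporter, was at 111, 102 and 105 CPM in Control and 68.0, 78.4, 82.5 and 65.0 CPM in FoxK1 KD, a log2 fold change of -0.53 (0.10, adjusted p = 0.0011). Slc7a11, the cystine-glutamate exchanger, was at 23.5, 29.1 and 37.7 CPM in Control and 19.6, 23.5, 14.4 and 15.6 CPM in FoxK1 KD. Its highest FoxK1 KD value lay just above its lowest Control value, and it fell by 0.70 (0.16, adjusted p = 0.010). Slc7a1, the cationic amino acid transporter (-0.35), Asns, asparagine synthetase (-0.31), and Psat1 of serine synthesis (-0.29) were closer to the threshold, and Asns was called in 0 of the 7 fits that left out 1 sample. Atf4 itself had -0.22 (adjusted p = 0.32) and Trib3 -0.46 (adjusted p = 0.090). Fits that left out 1 sample called 1 to 4 members, with 1 without Control replicate 3 or FoxK1 KD replicate 4, 2 without Control replicate 1 or FoxK1 KD replicate 3 and 3 without FoxK1 KD replicate 1 or 2, and the fit with library totals in place of TMM called 2. Among the named genes that were called, Slc7a11, Elovl6 and Ypel3 had promoter windows that hold the forkhead core GTAAACA, and that of Slc7a11, the deepest fall of these, is shown with the reverse complement TGTTTAC in capitals (chr3:50443564-50443863, minus strand).
Slc7a11: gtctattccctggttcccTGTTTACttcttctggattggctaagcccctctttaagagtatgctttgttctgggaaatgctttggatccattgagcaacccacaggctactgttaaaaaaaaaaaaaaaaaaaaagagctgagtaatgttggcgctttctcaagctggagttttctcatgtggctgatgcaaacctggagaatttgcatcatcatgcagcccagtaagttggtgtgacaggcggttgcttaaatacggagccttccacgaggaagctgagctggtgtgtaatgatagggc
GTAAACA on either strand was in 3.18% of the 8740 promoter windows of tested genes, in 5 of 150 (3.33%) of the genes that rose and in 8 of 143 (5.59%) of those that fell. The shares were not tested.

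A few insulin and IGF signalling genes rose, in a list with members on both sides of 0. Of 30 tested genes of the 38 listed, 3 rose and 0 fell. Over all tested genes 1.86% rose and 1.72% fell. In the list 17 members were above 0 and 13 below, with a median of 0.04. Igf1r, the IGF-1 receptor, was at 86.5, 92.3 and 96.2 CPM in Control and 125, 131, 138 and 137 CPM in FoxK1 KD, a log2 fold change of 0.54 (0.09, adjusted p = 5.9e-04). Inpp5k, a phosphatase of phosphoinositides, was at 53.0, 60.4 and 60.0 CPM in Control and 79.8, 83.2, 78.7 and 77.6 CPM in FoxK1 KD, a rise of 0.47 (0.10, adjusted p = 0.0031). Deptor, an inhibitor within the mTOR complexes, was at 34.3, 42.4 and 35.8 CPM in Control and 50.2, 53.8, 60.5 and 48.2 CPM in FoxK1 KD, a rise of 0.51 (0.12, adjusted p = 0.0093) that was not called without Control replicate 1. None of the 3 overlapped between groups. The insulin receptor Insr had 0.11 (0.11) and its substrate Irs2 0.27 (0.12), neither called. Among 21 tested fasting genes of the FoxO type, Fbxo32, a muscle-atrophy ubiquitin ligase, rose by 0.58 (0.12, adjusted p = 0.0050) and 0 fell. Among 27 tested genes of ERK feedback and immediate early response, Dusp4 (-0.39) and Spred2 (-0.50), both brakes on ERK signalling, fell, with calls in 4 and 1 of the 7 fits that left out 1 sample. Of 23 tested FoxK factors and partners 2 fell, Foxk1 and Sin3a. Sin3a, the scaffold of the Sin3 corepressor, was at 91.5, 109.7 and 100.3 CPM in Control and 71.7, 69.4, 94.0 and 72.4 CPM in FoxK1 KD, so that FoxK1 KD replicate 3 lay within Control. Its log2 fold change was -0.39 (0.11, adjusted p = 0.041), called in 2 of 7 fits that left out 1 sample.

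**Figure D3:**
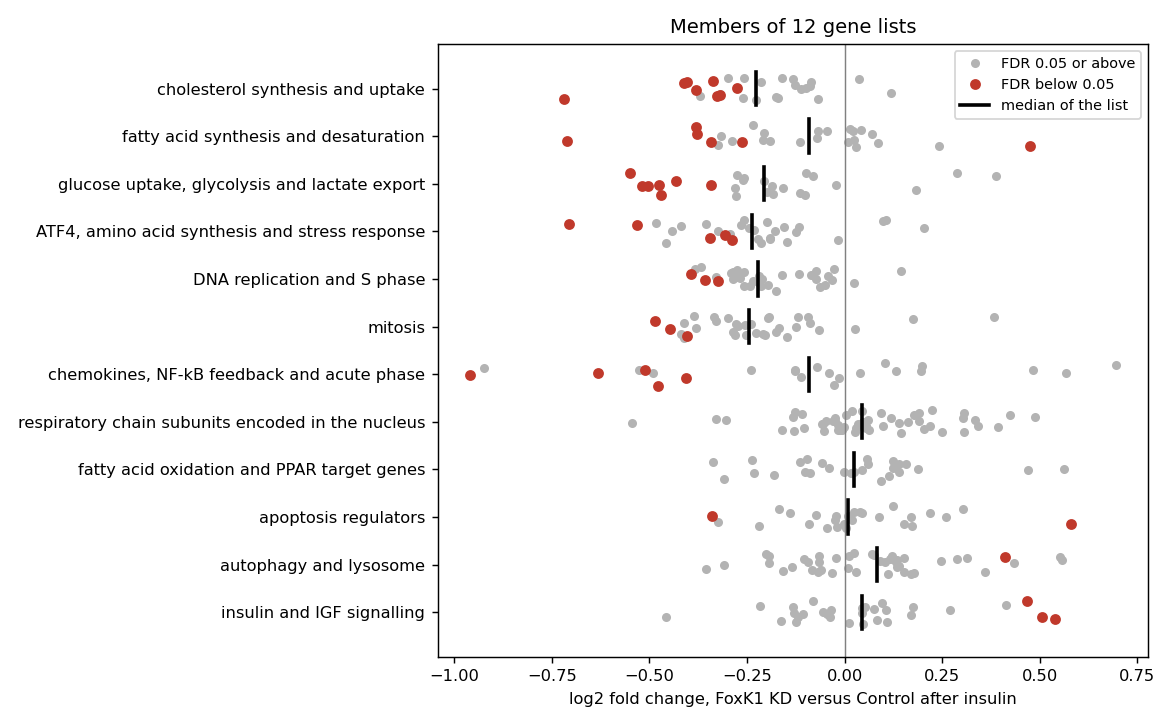
Log2 fold changes of FoxK1 KD versus Control after insulin for the tested members of 12 gene lists, with 1 dot per gene (red below an FDR of 0.05, grey otherwise) and a bar at the list median. Medians lie between -0.25 and -0.21 for the cholesterol, glycolysis, ATF4, S phase and mitosis lists and between 0.01 and 0.08 for the 5 lists at the bottom.

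Replication and mitosis genes had medians below 0 and few calls. Of 34 genes of DNA replication and S phase, 3 fell, where 1.72% of all tested genes fell and 1.86% rose. In this list 32 were below 0, with a median of -0.22. The 3 were Mcm3 (-0.39), Mcm5 (-0.36) and Mcm2 (-0.32), subunits of the replicative helicase. Mcm3 was at 339.6, 333 and 305 CPM in Control and 244, 243, 245 and 261 CPM in FoxK1 KD (adjusted p = 0.0070). Of 34 mitosis genes 3 fell and 31 were below 0, with a median of -0.25. They were the kinesin Kif2c (-0.49), the checkpoint protein Mad2l1 (-0.45) and the kinase Bub1 (-0.40). Fits that left out 1 sample called 1 to 4 S phase and 0 to 5 mitosis genes lower. Without Control replicate 1 the counts were 1 and 0, and without Control replicate 2 they were 4 and 5. With the GC and length trend removed 8 and 6 fell. Of 23 tested G1 regulators, Ccnd1 (0.29), Ccnd2 (0.39) and Cdkn1a (0.39) rose, a pair of cyclins and a CDK inhibitor. Cdkn1a was at 241, 219.7 and 208 CPM in Control and 296, 296, 281 and 295 CPM in FoxK1 KD, without overlap. Cdkn1a and Ccnd1 were called in 0 and Ccnd2 in 1 of the 7 fits that left out 1 sample.

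Inflammatory and interferon genes moved in small groups. Of 24 tested genes of 29 listed for chemokines, NF-kB feedback and acute phase, 5 fell and 0 rose. Over all tested genes 1.72% fell and 1.86% rose. The list median was -0.09. Vcam1, the adhesion molecule for leukocytes, was at 196, 179.8 and 199 CPM in Control and 123, 127, 122 and 124 CPM in FoxK1 KD. It fell by 0.63 on the log2 scale (0.09, adjusted p = 1.7e-05), to 64.6% of Control and without overlap. The neutrophil chemokine Cxcl5 was at 1736, 2236 and 2240 CPM in Control and 1501, 1488, 1565 and 1259 CPM in FoxK1 KD, a log2 fold change of -0.51 (0.12, adjusted p = 0.012). Tnfaip2 (-0.96), Ccl20 (-0.48) and Cxcl1 (-0.41) were the other called members. Leaving out 1 sample left 1 to 3 of the 5 calls, with 1 without FoxK1 KD replicate 4, 2 without Control replicate 1 or 2 or FoxK1 KD replicate 2, and 3 in the remaining fits.

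Of 19 tested interferon-stimulated genes of 39 listed, Ifit3 and Ifit3b rose and 0 fell, where 1.86% of all tested genes rose. The list median was 0.03. Ifit3, an antiviral protein with tetratricopeptide repeats, was at 5.54, 6.95 and 5.34 CPM in Control and 12.9, 17.6, 13.97 and 15.6 CPM in FoxK1 KD, a log2 fold change of 1.34 (0.22, adjusted p = 2.6e-04). Ifit3b was at 3.43, 5.69 and 3.46 CPM in Control and 7.39, 10.8, 10.2 and 13.4 CPM in FoxK1 KD, a log2 fold change of 1.32 (0.24, adjusted p = 8.9e-04). Neither overlapped between groups. At basal Ifit3 was at 28.0 to 39.5 CPM in Control and 44.6 to 60.0 CPM in FoxK1 KD. The genes are near-identical neighbours, so their reads may be shared. Their promoter windows are shown for the interferon-stimulated response element, in capitals (TTTC, any 2 bases, then TTTC), which was searched on both strands and was in 3.47% of the 8740 windows and in 8 of 15 (53.3%) of this list. The windows are chr19:34583279-34583578, plus strand, and chr19:34607707-34608006, plus strand.
Ifit3: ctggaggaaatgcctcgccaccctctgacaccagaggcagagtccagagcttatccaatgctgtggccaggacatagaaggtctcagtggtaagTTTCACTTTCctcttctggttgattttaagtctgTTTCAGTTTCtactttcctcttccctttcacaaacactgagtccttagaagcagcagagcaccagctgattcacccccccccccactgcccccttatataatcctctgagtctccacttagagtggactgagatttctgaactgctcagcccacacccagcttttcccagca
Ifit3b: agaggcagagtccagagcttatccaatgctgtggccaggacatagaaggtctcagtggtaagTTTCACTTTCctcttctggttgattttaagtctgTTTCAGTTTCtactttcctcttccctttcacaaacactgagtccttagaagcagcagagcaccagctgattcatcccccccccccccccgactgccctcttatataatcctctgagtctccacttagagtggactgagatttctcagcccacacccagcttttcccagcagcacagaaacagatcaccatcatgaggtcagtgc
Each window holds 2 copies, and TTTCACTTTC and TTTCAGTTTC stand in the same order in both.

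The double knockdown gene group named by the study also moved after FoxK1 knockdown. The study chose these 12 genes on samples of this series, so their count is not independent evidence. Of the 12, 4 rose and 5 fell. The rises were Mcam, Alpl, Adgrg1 and Ccnd1, and the falls Scd1, Aff4, Vcam1, Tgoln1 and Scd2. Adgrg1, an adhesion G protein-coupled receptor, was at 36.1, 43.3 and 40.2 CPM in Control and 71.7, 73.2, 55.0 and 70.5 CPM in FoxK1 KD, a log2 fold change of 0.77 (0.10, adjusted p = 6.5e-06). Mcam, a cell adhesion molecule, was low, at 1.85, 1.58 and 0.94 CPM in Control and 6.65, 4.48, 5.93 and 5.57 CPM in FoxK1 KD, and rose by 1.91 (0.37, adjusted p = 0.0016). Tgoln1, a protein of the trans-Golgi network, was at 574, 547 and 588 CPM in Control and 380.5, 369, 405 and 366 CPM in FoxK1 KD, a fall of 0.58 (0.08, adjusted p = 2.2e-05). Sgk1 (0.44, adjusted p = 0.051), Wdr45 (0.56, adjusted p = 0.057) and mt-Nd6 (0.10, adjusted p = 0.73) were not called. Of the 22 genes named for the insulin response 5 had enough counts, and Hk2 and Slc7a11 fell while Dusp5 (0.21) and Spry4 (-0.20) were not called.

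Other lists held few calls, where 1.86% of all tested genes rose and 1.72% fell. Genes of mitochondrial oxidation did not pass the test, with 0 calls among 56 nuclear respiratory chain genes (median log2 fold change 0.04), 11 mitochondrial transcripts (0.12) and 27 genes of fatty acid oxidation (0.02). In the 26 genes of the TCA cycle the succinyl-CoA ligase subunit Suclg2 fell by 0.38 (0.08, adjusted p = 0.0058), and in mitochondrial dynamics and biogenesis the helicase Twnk rose by 0.37 (0.10, adjusted p = 0.024). Of 27 tested apoptosis regulators 1 rose and 1 fell. The death receptor Fas rose by 0.58 (0.16, adjusted p = 0.032), while Bax had 0.15 (0.19) and Bcl2l11, which encodes BIM, 0.02 (0.12). The number of these regulators called lower was 0 without Control replicate 1 and 1 in the other fits that left out 1 sample. Atg7 rose by 0.41 among 44 genes of autophagy and lysosome, and Xbp1 fell by 0.37 among 24 genes of the unfolded protein response. The glutathione transferases Gstm1 (0.61) and Gstm2 (0.65) rose among 30 tested redox genes, with the split of reads between these related copies uncertain, and Slc7a11 fell there. In the clock list Bhlhe40 fell by 0.36 (0.07, adjusted p = 0.0014), and Per2 rose by 0.65 (0.19, adjusted p = 0.040) but by 0.36 (adjusted p = 0.32) without Control replicate 1, at 10.6, 24.3 and 18.2 CPM in Control. Sparc (0.41) and the actin-binding protein Cnn2 (0.47) rose with Thbs1 among 24 tested matrix and cytoskeleton genes. In the Wnt list the beta-catenin partner Tcf7l2 rose by 0.65 (0.13, adjusted p = 0.0020) and the ligand Wnt7b by 0.59 (0.17, adjusted p = 0.039), and in ribosome biogenesis Mybbp1a (-0.32) and Rrp12 (-0.31) fell. In fits that left out 1 sample, Xbp1 was called in 1 of 7 and Fas, Per2, Cnn2, Wnt7b and Rrp12 in 2 of 7.

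The same knockdown was also measured at basal, in 4 Control and 4 FoxK1 KD samples that are not among the 7 above. There 385 genes were higher (3.39%) and 535 lower (4.71%), 8.09% of those tested. Of the 212 genes that rose after insulin, 190 (89.6%) were above 0 at basal, where 47.9% of all tested genes were, and 76 were called higher and 0 lower. Of the 196 that fell, 172 (87.8%) were below 0, where 52.1% of all tested genes were, and 64 were called lower and 0 higher. Thbs1 was at 24.1 to 25.9 CPM in Control and 63.3 to 74.3 CPM in FoxK1 KD at basal, a log2 fold change of 1.45 (0.11). Vcam1 had -1.04 (0.08) at basal and Scd1 -0.88 (0.08), both called. In the lists, 16 of 27 cholesterol genes, 12 of 25 glycolysis genes, 11 of 30 ATF4 genes and 12 of 34 S phase genes were called lower at basal, with medians of -0.31, -0.30, -0.35 and -0.25. The basal counts rest on Control basal replicate 1, which stood apart from the other three (chi-square per degree of freedom 15.7 to 22.1 against 2.63 to 4.92 among them). Without it 201 of the 212 and 182 of the 196 genes kept the direction they had after insulin, 75 and 52 of them called, and 11 cholesterol, 10 glycolysis, 8 ATF4 and 3 S phase genes were called lower. Over all genes 220 were then higher and 188 lower, and in a model of the groups compared alone, whose spread includes that sample, 31 and 15. Without FoxK1 KD basal replicate 2 or 4, 251 and 333 genes were lower.

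**Figure D4:**
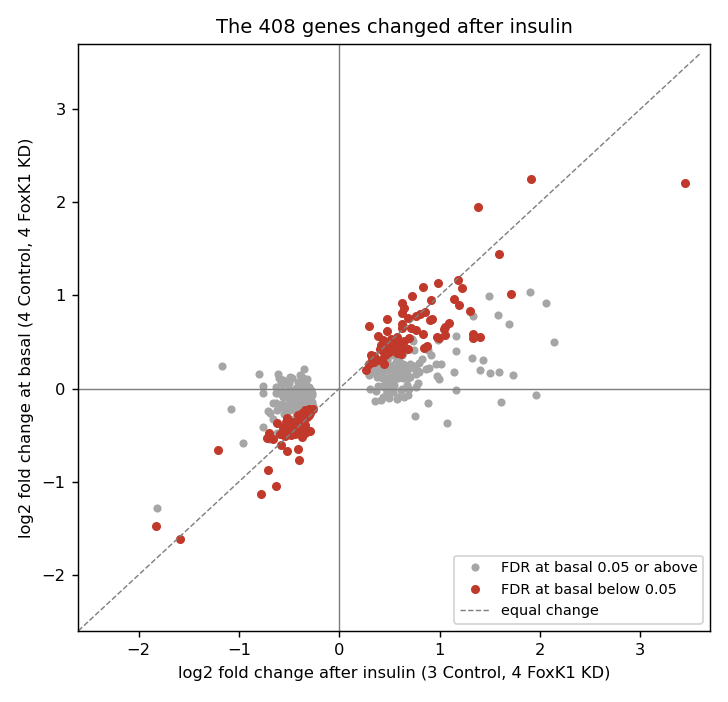
The 408 genes called after insulin, with the log2 fold change after insulin (3 Control, 4 FoxK1 KD) on the horizontal axis and at basal (4 and 4) on the vertical axis, 1 dot per gene, red where also called at basal. Most dots lie at the upper right and lower left, 190 of 212 rises above 0 and 172 of 196 falls below 0, and the dashed line marks equal change.

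The difference between the effect after insulin and at basal was tested as an interaction. No gene passed an FDR of 0.05 in edgeR (0 of 11368), where 1519 (13.4%) had an unadjusted p below 0.05, limma-voom called 0, and DESeq2 called 15 higher and 9 lower. At the study's FDR of 0.25, 226 genes (1.99%) had a more positive and 160 (1.41%) a more negative effect after insulin, 3.4% together. Without Control basal replicate 2, 18 and 7 passed an FDR of 0.05. Among the named genes, Slc6a18 had 1.40 after insulin and 0.55 at basal (difference 0.85 with a standard error of 0.19) and Tcf7l2 had 0.65 against -0.09 (difference 0.74), each with an adjusted p of 0.086. For Ypel3 the values were 0.99 and 0.10 (adjusted p = 0.12) and for Ifit3b 1.32 and 0.33 (adjusted p = 0.16). Vcam1 had -0.63 after insulin and -1.04 at basal (adjusted p = 0.17) and Ccnd1 had 0.29 and 0.68 (adjusted p = 0.18). Inpp5k had 0.47 after insulin and 0.07 at basal (adjusted p = 0.20). Foxk1 itself was at 45.2% of Control at basal and 58.2% after insulin, a difference on the log2 scale of 0.36 with an adjusted p of 0.40. Mean Foxk1 in Control was 81.4 CPM at basal and 53.0 CPM after insulin. In FoxK1 KD it was 36.8 and 30.9 CPM, so both percentages have different Control levels beneath them.

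After insulin the FoxK2 KD and DKD cells were compared with the same 3 Control samples, so the values below share their error and are given side by side without a test. Thbs1 had log2 fold changes of 1.59 in FoxK1 KD, 0.05 in FoxK2 KD and 0.83 in DKD. Slc6a18 had 1.40, 0.33 and 1.15, and Serpina1a 1.30, 0.82 and 1.48. Ifit3 had 1.34, -0.06 and 0.67, and Igf1r 0.54, -0.25 and 0.05. Among the falls, Scd1 had -0.71 in FoxK1 KD, -0.00065 in FoxK2 KD and -0.36 in DKD. Sprr1a had -1.83, -0.67 and -1.64, and Aff4 -0.70, -0.09 and -0.58. Foxk1 itself was at 58.2%, 98.8% and 64.6% of Control in these groups.

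Depth, replicate number and the spread between samples of a group all enter the precision of these comparisons. Across tested genes the standard error had a median of 0.15 (log2 scale), and the absence of a call does not show that a gene did not change. Log2 fold changes rose with GC content (Spearman's rho 0.16 across genes) and fell with length (-0.12), and genes are not independent replicates. The p-values set each difference against a spread estimated within the 8 groups over all 30 samples. The labels do not say whether replicates were separate cultures, so that spread may be technical.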

How the data were processed

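RNA was extracted with RNeasy columns, and poly(A) libraries were made with a NEBNext kit. The authors deposited raw counts, whole numbers of reads per gene without normalization. The submitters' processing notes name CASAVA 1.8, STAR 2.4.2a, featureCounts and GRCm38.p4, and the strand setting is not given in the sources used here, so antisense and overlapping genes are uncertain. Of 49089 gene identifiers 48435 were found in GENCODE M21, 41427 with the same version, which gave symbols, types and coordinates. The listed symbols Ctgf, Cyr61 and Sds3 were not found.

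Genes passing edgeR's filterByExpr (11368) were TMM-normalized and fitted in 1 model of the 8 groups and 30 samples, which share one estimate of the spread (edgeR 4.0.16, R 4.3.3, glmQLFit and glmQLFTest, Benjamini-Hochberg adjustment, FDR below 0.05). The study used limma and an FDR of 0.25, which were tried as alternatives. Standard errors are the absolute log2 fold change over the square root of F. On simulated data the script recovered 64% of 1.5-fold and 92% of 4-fold changes, with 50 genes of each. Of 176 calls there 6.25% were false. Changes smaller than 1.5-fold were not simulated.

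Pairs of samples within the groups differed by more than sampling noise (smallest chi-square per degree of freedom 1.75). Samples were grouped by their labels. Genes named were Foxk1 and Foxk2, the 14 strongest rises and 14 strongest falls by fold change (protein-coding calls whose groups do not overlap and whose log2-CPM averages 3 or more), up to 4 calls each way per list by p, the genes the study names, and up to 5 interaction calls each way. Marker genes, uncalled list members and the remaining called list members were named in addition, after their values were seen. Some genes that entered the fits and list counts are not reported by name here. The comparison, 28 gene lists and tests were chosen with earlier results of these data known. Alternatives were DESeq2 1.42.0, limma-voom (limma 3.58.1), a minimum of 10 counts in every sample or 1 in any, no TMM, protein-coding genes, a GC and length trend removed, the compared groups alone, a replicate block, each sample left out, an FDR of 0.25 and a 1.5-fold minimum. Figures used Python 3.11.15 and matplotlib 3.10.9.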

Additional observations from a re-analysis of the deposited data

Results flagged for a closer look

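Among 97 groups of 4 samples of named genes, 6 held 1 sample far from the other 3, by the gap to its nearest neighbour over the range of the group (Dixon's test at the 95% level). Chance alone flags about 1 in 20 such groups. All 6 were in FoxK1 KD cells after insulin. The 97 groups covered 87 named genes, so most groups were of that condition and the place of the 6 is not a result. Control after insulin, with 3 samples, formed no group of 4. Sin3a was at 94.0 CPM in replicate 3 and 69.4 to 72.4 in the others. Adgrg1 was at 55.0 CPM in replicate 3 and 70.5 to 73.2 in the others. Cdkn1a was at 281 CPM in replicate 3 and 295 to 296 in the others. Elovl6 was at 251 CPM in replicate 4 and 289 to 295 in the others. Mcm3 was at 261 CPM in replicate 4 and 243 to 245 in the others. Bhlhe40 was at 230.3 CPM in replicate 2 and 212 to 215 in the others.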

How the results depend on the processing

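With 212 genes higher and 196 lower after insulin, 118 were lower without TMM and 362 with the GC and length trend removed, while an FDR of 0.25 gave 863 and 854 and a 1.5-fold minimum 117 and 34. Leaving out 1 sample gave 131 to 165 higher and 86 to 150 lower, and no fewer than 197 of the 408 calls were kept with the same direction, the fewest without Control replicate 1. At basal (385 and 535) 347 were lower without TMM, the compared groups alone gave 31 and 15, an FDR of 0.25 gave 1333 and 1695, a 1.5-fold minimum 92 and 145, and leaving out 1 sample 220 to 488 and 188 to 759. The interaction (0 and 0) gave 15 and 9 in DESeq2, 142 and 32 with genes of at least 1 count in any sample, and 226 and 160 at an FDR of 0.25. Leaving out 1 sample gave 0 to 18 and 0 to 7, with 18 and 7 without Control basal replicate 2. The cause of these moves was not tested, apart from the looser or stricter thresholds themselves. Same-numbered Control and FoxK1 KD samples did not deviate together (correlations -0.07, 0.02 and 0.06 after insulin), so the number was not taken as a pairing. With it as a replicate block 184 genes were higher and 147 lower after insulin, 343 and 486 at basal and 0 in the interaction. Among the named genes none that was called changed sign. The uncalled Dusp5 had -0.0041 without Control replicate 3, over a range of -0.0041 to 0.40. Totals of 2345903 to 3879649 counts per sample limit calls among low genes.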
